A study of Mus musculus with 2 samples.

Results

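Cytochrome P450 genes outside family 1 were compared between the proximal intestine of CD36 knockout (CD36KO) mice and that of wild-type (WT) mice. A gene was a member when at least 1 probe set carried its symbol alone and the symbol read Cyp, digits, letters, digits, with Cyp1a1, Cyp1a2 and Cyp1b1 left out. This gave 67 genes in 14 families and 32 subfamilies, measured by 88 probe sets, out of 18194 named genes on the array. Where a gene had several probe sets, the one with the highest mean over both arrays stood for it. CD36KO mice carry a germline null allele of Cd36, the fatty acid and scavenger receptor, on the C57BL/6 background. WT mice shared that background, and both groups ate chow without restriction. The upper part of the whole intestine was used, and no separation of cell types is described. RNA of 3 animals per genotype was pooled and run on 1 array, so n = 1 per genotype. The spread between animals is unknown, no difference below could be set against replicate error, and no test was possible. No age or sex is stated in the labels.

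P450s are haem enzymes that insert oxygen into lipids, steroids and foreign compounds. Most sit in the endoplasmic reticulum and take electrons from NADPH through P450 reductase and cytochrome b5, while a few mitochondrial members are served by ferredoxin. In the small intestine the drug-metabolizing members are found mainly in villus enterocytes, where they act on absorbed compounds before these reach the liver. The nuclear receptors PXR (Nr1i2) and CAR (Nr1i3) are known to induce members of the Cyp2b, Cyp2c and Cyp3a subfamilies, and PPARA induces the Cyp4a genes.

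All values are the deposited log2 values, and each difference is CD36KO minus WT on that scale. The 2 arrays had medians of 4.38 in CD36KO and 4.38 in WT. A gene was called above the level filter when the mean of both arrays reached 4.38, the median of that mean over all probe sets. Cd36 itself read 6.02 in CD36KO and 7.68 in WT, a 3.17-fold lower value. Its other probe sets were 3.56-fold and 2.33-fold lower. Whether any of these probes lies inside the deletion is not stated, so residual signal has no fixed reading. All 18 hybridization controls were lower in CD36KO, with a median difference of -0.28. The 3' minus 5' difference of beta-actin was 1.34 in CD36KO and 2.28 in WT. Ileal markers were high in the CD36KO pool although both pools are labelled proximal, with Fabp6, the ileal bile acid binding protein, at 12.92 in CD36KO and 6.25 in WT. In a bulk sample, fewer cells of a type and less RNA per cell cannot be told apart.

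The start regions of all 10 Cyp2b, Cyp2c and Cyp3a members above the filter are shown, because PXR and CAR are known to induce genes of these subfamilies and the largest P450 differences lay among them. Each sequence is a RefSeq window of 250 bases before and 50 bases after the annotated start, 5′ to 3′ on the strand of the gene. Capitals mark the letters AGGTCA and AGTTCA, the core letters to which nuclear receptors bind, and AGATAA, the GATA factor motif, in either direction.
Cyp2b10, GRCm38.p6 chr7:25897408-25897707, forward strand: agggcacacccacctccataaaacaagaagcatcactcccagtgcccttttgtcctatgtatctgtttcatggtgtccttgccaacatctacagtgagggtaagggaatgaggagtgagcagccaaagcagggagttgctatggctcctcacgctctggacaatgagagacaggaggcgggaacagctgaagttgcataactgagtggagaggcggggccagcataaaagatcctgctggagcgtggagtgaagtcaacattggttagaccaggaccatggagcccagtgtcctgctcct
Cyp2b9, GRCm38.p6 chr7:26173159-26173458, forward strand: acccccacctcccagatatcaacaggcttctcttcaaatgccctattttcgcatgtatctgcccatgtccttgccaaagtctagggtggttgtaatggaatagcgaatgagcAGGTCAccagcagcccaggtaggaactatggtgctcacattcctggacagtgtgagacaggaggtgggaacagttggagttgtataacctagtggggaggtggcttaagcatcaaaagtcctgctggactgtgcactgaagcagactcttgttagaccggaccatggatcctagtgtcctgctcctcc
Cyp2c29, GRCm38.p6 chr19:39286835-39287134, forward strand: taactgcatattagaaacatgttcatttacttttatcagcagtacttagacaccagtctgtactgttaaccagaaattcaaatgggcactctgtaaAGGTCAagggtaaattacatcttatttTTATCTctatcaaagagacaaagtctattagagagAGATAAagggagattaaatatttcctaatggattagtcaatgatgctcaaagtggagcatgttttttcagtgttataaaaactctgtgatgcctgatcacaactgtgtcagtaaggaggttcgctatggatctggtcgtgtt
Cyp2c38, GRCm38.p6 chr19:39463026-39463325, reverse strand: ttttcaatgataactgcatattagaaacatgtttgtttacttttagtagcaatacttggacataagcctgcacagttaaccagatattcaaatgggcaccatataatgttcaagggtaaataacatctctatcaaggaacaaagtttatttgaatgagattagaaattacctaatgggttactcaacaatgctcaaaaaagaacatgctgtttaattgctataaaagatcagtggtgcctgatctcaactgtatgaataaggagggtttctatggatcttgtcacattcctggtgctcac
Cyp2c55, GRCm38.p6 chr19:39006769-39007068, forward strand: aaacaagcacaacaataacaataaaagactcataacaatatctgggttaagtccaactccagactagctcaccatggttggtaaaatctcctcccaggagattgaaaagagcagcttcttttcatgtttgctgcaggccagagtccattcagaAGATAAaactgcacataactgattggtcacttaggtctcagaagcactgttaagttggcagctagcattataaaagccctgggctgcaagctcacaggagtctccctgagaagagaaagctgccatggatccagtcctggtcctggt
Cyp2c65, GRCm38.p6 chr19:39060756-39061055, forward strand: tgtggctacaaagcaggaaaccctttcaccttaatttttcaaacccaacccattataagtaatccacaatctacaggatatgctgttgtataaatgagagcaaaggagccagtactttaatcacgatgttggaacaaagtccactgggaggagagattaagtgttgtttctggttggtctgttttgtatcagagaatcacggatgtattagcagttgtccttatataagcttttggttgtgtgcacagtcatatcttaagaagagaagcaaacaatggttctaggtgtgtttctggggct
Cyp2c68, GRCm38.p6 chr19:39741052-39741351, reverse strand: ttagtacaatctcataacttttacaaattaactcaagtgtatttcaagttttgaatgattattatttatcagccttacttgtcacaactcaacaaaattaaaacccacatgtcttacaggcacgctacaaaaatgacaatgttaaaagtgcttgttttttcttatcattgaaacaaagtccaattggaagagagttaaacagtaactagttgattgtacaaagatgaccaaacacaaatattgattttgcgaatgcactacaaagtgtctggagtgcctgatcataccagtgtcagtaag
Cyp3a11, GRCm38.p6 chr5:145879805-145880104, reverse strand: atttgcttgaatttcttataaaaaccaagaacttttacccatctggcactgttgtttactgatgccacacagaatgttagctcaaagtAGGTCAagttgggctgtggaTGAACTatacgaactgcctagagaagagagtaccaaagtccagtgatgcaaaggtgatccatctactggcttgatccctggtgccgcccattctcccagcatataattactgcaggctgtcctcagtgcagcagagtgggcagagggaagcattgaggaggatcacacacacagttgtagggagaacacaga
Cyp3a13, GRCm38.p6 chr5:137921570-137921869, reverse strand: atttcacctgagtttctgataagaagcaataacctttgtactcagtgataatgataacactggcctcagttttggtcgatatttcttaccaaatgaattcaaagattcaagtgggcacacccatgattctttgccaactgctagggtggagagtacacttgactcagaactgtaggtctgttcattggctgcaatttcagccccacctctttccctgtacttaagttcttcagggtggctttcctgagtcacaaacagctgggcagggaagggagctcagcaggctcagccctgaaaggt
Cyp3a25, GRCm38.p6 chr5:146009568-146009867, reverse strand: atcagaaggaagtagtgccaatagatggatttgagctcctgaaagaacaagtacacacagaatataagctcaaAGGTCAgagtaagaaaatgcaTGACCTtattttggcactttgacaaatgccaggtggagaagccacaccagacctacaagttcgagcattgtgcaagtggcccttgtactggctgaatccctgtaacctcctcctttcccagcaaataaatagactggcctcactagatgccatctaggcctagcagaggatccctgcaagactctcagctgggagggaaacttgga
Cyp3a25 held AGGTCA once in each direction, beginning 177 and 156 bases before the start, in the first of 2 windows that differ by 1 base in position. Cyp3a11 held AGGTCA 162 bases and AGTTCA, reversed, 142 bases before it, and Cyp2c29 held AGGTCA at 154 bases and AGATAA at 127 and 92 bases. Cyp2c55 held AGATAA at 97 bases and Cyp2b9 held AGGTCA at 138 bases. No such letters were present in the other 5 windows shown, those of Cyp2b10, Cyp2c38, Cyp2c65, Cyp2c68 and Cyp3a13, which says nothing of receptor binding elsewhere. Windows were found for 48 of the 67 members. Of these, 13 held AGGTCA and 8 held AGTTCA in at least 1 window, while 16.3% and 14.0% of all 32851 windows in the table did. AGATAA was present in 8 members and in 11.2% of all windows. Of the 9 genes with a window that read at least 1.5-fold lower in CD36KO above the filter, 2 held AGGTCA, 0 held AGTTCA and 3 held AGATAA.

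Most P450 genes above the level filter read lower in the CD36KO pool. Of the 31 that reached the filter, 10 were lower by 1.5-fold or more and 1 was higher by that much. Among all 12006 genes at that level the shares were 3.17% lower and 5.09% higher. Of the 10, Cyp2j9 reached the filter only through its WT value, and among the 30 members at or above 4.38 on both arrays 9 were lower and 1 higher, beside 3.08% and 4.72% of all 11741 such genes. Counting any difference, 25 of the 31 read lower and 6 higher, beside 50.8% and 48.8% of all genes at that level. Without Cyp7b1 and Cyp21a1, whose probe sets disagree in sign, 24 of 29 read lower and 5 higher. The median difference of those 31 members was -0.31, against -0.0058 over all genes above the filter. At the probe set used, only Cyp2c29 and Cyp2c55 passed 2-fold, both downward, where 0.625% of all genes above the filter did so. Cyp2b10, 1.99-fold lower there, was 2.32-fold and 2.52-fold lower at its other probe sets. At the probe set used, 0 members were 2-fold higher (1.53% of all genes). Over all 67 members without a filter, 11 were 1.5-fold lower and 1 was higher, beside 2.6% and 3.81% of all 18194 genes. By any amount, 45 read lower and 22 higher, beside 51.5% and 47.8%. The additional gene was Cyp2d10, which read 3.93 in CD36KO and 4.57 in WT, with a mean just under the filter.

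The direction was uniform where the signal was strong. Of the 67 members, 18 had a mean at or above 6.46, the 75th percentile over probe sets, a level chosen for this count after the values were seen. All 18 read lower in CD36KO, by between -0.03 (Cyp4f14) and -1.10 (Cyp2c29), and 9 of them passed 1.5-fold. Among all 7248 genes at that level 53.6% read lower by any amount, and 3.53% were at least 1.5-fold lower. The hybridization controls, added to each sample during processing, were lower too, and their part in the P450 differences was not tested. Of the 13 members between the filter and that level, 7 read lower and 6 higher, or 6 and 5 without Cyp7b1 and Cyp21a1. The 36 members below the filter were split as 20 lower and 16 higher, within -0.63 to 0.51.

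**Figure D1:**
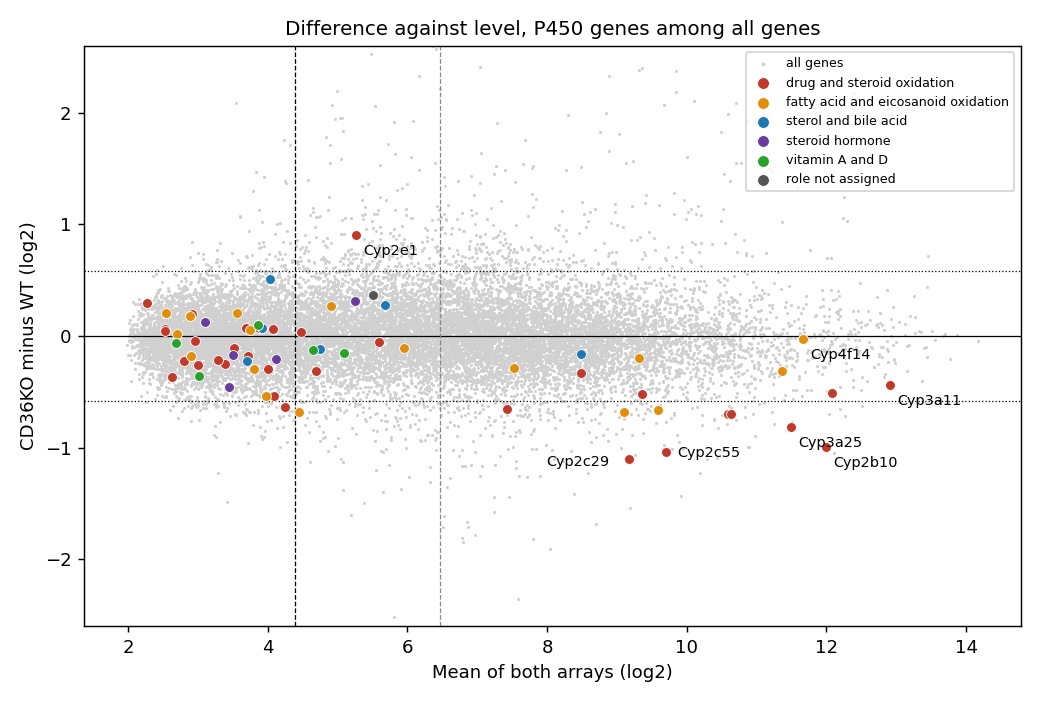
Difference between CD36KO and WT (log2) against the mean of both arrays (log2) for all genes in grey and for the 67 P450 genes, coloured by role. Dashed vertical lines mark 4.38 and 6.46, dotted horizontal lines mark 1.5-fold, and 28 genes differing by more than 2.6 lie outside the axis. To the right of 6.46 all 18 P450 genes lie below 0.

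Among the P450s of drug and steroid oxidation (subfamilies Cyp2a to Cyp2g, Cyp2s and Cyp3a), 15 of 33 members were above the filter. Of these, 7 were at least 1.5-fold lower, 1 was higher and 7 lay within 1.5-fold, with a median difference of -0.52. Among all genes above the filter, 3.17% were lower and 5.09% higher by that much. Cyp2b10, the classical CAR target of mouse liver, read 11.50 in CD36KO and 12.49 in WT, a 1.99-fold lower value. Its further probe sets read 10.47 in CD36KO against 11.68 in WT, and 9.38 in CD36KO against 10.71 in WT, so the gene was lower at all 3, by -0.99, -1.21 and -1.33. The related Cyp2b9 differed by -0.31, while Cyp2b13 (-0.11) and Cyp2b19 (0.06) were below the filter on both arrays.

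The Cyp2c subfamily, whose members oxidize drugs and also arachidonic acid, held both genes past 2-fold at the probe set used. Cyp2c29 read 8.62 in CD36KO and 9.72 in WT, 2.14-fold lower. Cyp2c55, a form found in mouse intestine, read 9.18 in CD36KO and 10.22 in WT, 2.05-fold lower. Cyp2c65, also a gene of the mouse gut, read 10.25 in CD36KO and 10.94 in WT, 1.62-fold lower. The difference was smaller for Cyp2c68, at 9.10 in CD36KO and 9.62 in WT (-0.52). Cyp2c38 was nearly level, at 5.56 in CD36KO and 5.61 in WT (-0.05). The other 6 members, Cyp2c23, Cyp2c37, Cyp2c39, Cyp2c50, Cyp2c54 and Cyp2c70, were below the filter and differed by between -0.53 and 0.20. Cyp2c29 and Cyp2c39 are neighbours on chromosome 19 whose start windows were identical at 75.7% of aligned positions. For Cyp2c39 only the window beginning at base 39347096 was aligned, not its other window at 39510572. Cyp2c39 read 3.72 in CD36KO and 3.65 in WT.

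In the Cyp3a subfamily 3 of 5 members were above the filter, and all 3 read lower. Cyp3a25 read 11.08 in CD36KO and 11.90 in WT, 1.76-fold lower. Cyp3a13 read 11.83 in CD36KO and 12.34 in WT (-0.51). Cyp3a11, the PXR target usually set beside human CYP3A4, read 12.69 in CD36KO and 13.13 in WT, a difference of -0.44 (1.36-fold lower) that did not reach 1.5-fold. Cyp3a16 and Cyp3a44 were below the filter.

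Among the Cyp2d genes, Cyp2d26 read 10.29 in CD36KO and 10.99 in WT, 1.62-fold lower. Cyp2d22, proposed as a mouse counterpart of human CYP2D6, read 7.10 in CD36KO and 7.75 in WT (-0.65), with a second probe set at -0.44. The other 6 Cyp2d members were below the filter. Cyp2s1, an epithelial P450, read 8.32 in CD36KO and 8.65 in WT (-0.33). Cyp2e1, which oxidizes ethanol and acetone, was the single member higher by 1.5-fold or more. It read 5.72 in CD36KO and 4.82 in WT, 1.87-fold higher, and has 1 probe set. Cyp2a12 was level (0.04), and Cyp2f2 and Cyp2g1 were below the filter, with differences of -0.22 and -0.04.

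**Figure D2:**
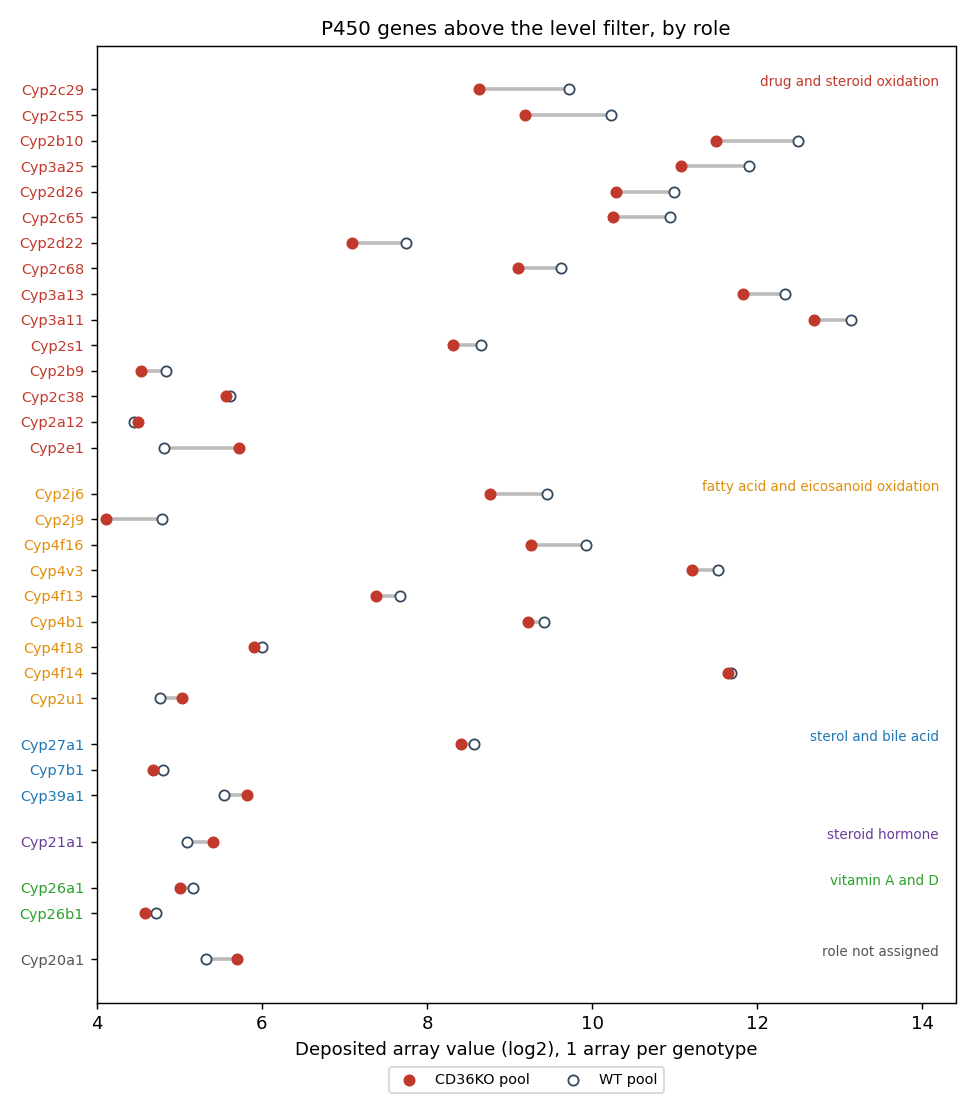
Deposited log2 values of the 31 P450 genes above the level filter in the CD36KO pool (filled) and the WT pool (open), 1 array each, grouped by role and ordered by difference. Cyp2c29, Cyp2c55 and Cyp2b10 have the widest gaps toward lower values in CD36KO, and Cyp2e1 the widest in the other direction.

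Among the P450s of fatty acids and eicosanoids, 9 of 17 members were above the filter. Of these, 3 were at least 1.5-fold lower, 0 were higher and 6 lay within 1.5-fold, with a median difference of -0.29. The shares over all genes above the filter were 3.17% lower and 5.09% higher. Cyp2j6, an arachidonate and linoleate oxidase of the small intestine, read 8.77 in CD36KO and 9.45 in WT, 1.60-fold lower. Its second probe set differed by -0.85. Cyp2j9 read 4.11 in CD36KO and 4.79 in WT (-0.68), with its CD36KO value under the filter level, and without it 2 of 8 members were lower, with a median of -0.25. Cyp2j5, Cyp2j11 and Cyp2j13 were below the filter.

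The Cyp4f genes, which hydroxylate leukotrienes and long-chain fatty acids at their tail, were uneven. Cyp4f16 read 9.26 in CD36KO and 9.92 in WT, 1.58-fold lower, with a second probe set at -0.23. Cyp4f14, the mouse leukotriene B4 hydroxylase, was level at 11.65 in CD36KO and 11.68 in WT (-0.03). Cyp4f13 differed by -0.29 and Cyp4f18, of myeloid cells, by -0.10, while Cyp4f15 (-0.54) and Cyp4f39 (0.06) were below the filter. Cyp4v3, counterpart of the fatty acid hydroxylase gene mutated in human Bietti crystalline dystrophy, read 11.21 in CD36KO and 11.52 in WT (-0.32). Cyp4b1 read 9.22 in CD36KO and 9.42 in WT (-0.20), and Cyp2u1 read 5.03 in CD36KO and 4.76 in WT (0.27). The PPARA targets of the Cyp4a subfamily were below the filter at the probe sets that name 1 gene. Cyp4a14 read 2.82 in CD36KO and 2.99 in WT, and Cyp4a31 read 3.67 in CD36KO and 3.46 in WT. Cyp4x1 was below it as well (0.18).

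The P450s of sterols, bile acids, steroid hormones and vitamins held no member past 1.5-fold at the probe set used. Cyp27a1, the mitochondrial sterol hydroxylase, read 8.41 in CD36KO and 8.57 in WT (-0.16). Cyp39a1, an oxysterol hydroxylase, read 5.81 in CD36KO and 5.54 in WT (0.27). Cyp7b1, which hydroxylates oxysterols, read 4.68 in CD36KO and 4.80 in WT (-0.12), but its other probe sets differed by 0.60 and -0.28. These disagree in sign, so the direction of this gene depends on the probe set. The bile acid genes of liver, Cyp7a1 (0.51) and Cyp8b1 (0.08), and the brain sterol hydroxylase Cyp46a1 (-0.22) were below the filter.

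Of the steroid hormone genes, Cyp21a1 alone was above the filter, at 5.41 in CD36KO and 5.10 in WT (0.31), and its second probe set differed by -0.41, so its direction also depends on the probe set. Cyp11a1, Cyp11b1, Cyp11b2 and Cyp17a1 were below it. Of the retinoic acid hydroxylases, Cyp26a1 read 5.01 in CD36KO and 5.16 in WT, and Cyp26b1 4.59 in CD36KO and 4.71 in WT, differences of -0.15 and -0.13. The vitamin D genes Cyp2r1 (-0.06), Cyp24a1 (0.10) and Cyp27b1 (-0.35) were below the filter. Cyp20a1, without a known substrate, read 5.69 in CD36KO and 5.33 in WT (0.37), with other probe sets at 0.10 and 0.0032.

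**Figure D3:**
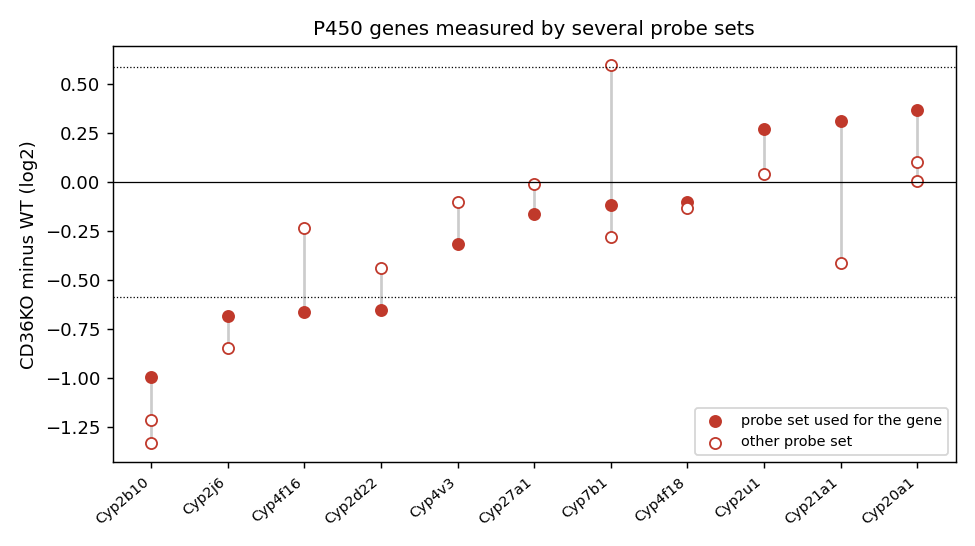
CD36KO minus WT difference (log2) at every probe set of the 11 P450 genes above the level filter that have several. Filled points are the probe sets used for the gene, and dotted lines mark 1.5-fold. Cyp2b10 and Cyp2j6 pass 1.5-fold downward at every probe set, Cyp4f16 and Cyp2d22 at the filled one alone, and Cyp7b1 and Cyp21a1 have points on both sides of 0.

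Probe sets of 1 gene agreed in sign for 9 of the 11 members above the filter that had several. Over all 67 members, 50 rest on a single probe set. P450 paralogues are alike in sequence, so a probe set may also read a neighbour, and without the probe sets whose names mark shared or cross-matching probes (_s_at and _x_at) the count of genes 1.5-fold lower was 9, since Cyp2c65 has no other.

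Members lie in clusters, and no cluster was past 1.5-fold at all of its members, many of which were below the filter. By gene order, 45 members fell into 8 clusters in which no more than 10 other protein-coding genes separate neighbours. In the Cyp2c cluster on chromosome 19, Cyp2c55, Cyp2c65 and Cyp2c29 are consecutive among the measured members and were the 3 genes there past 1.5-fold. The next members in order, Cyp2c39 and Cyp2c38, differed by 0.07 and -0.05, and Cyp2c39 was below the filter. All 5 members of this cluster above the filter read lower. In the cluster on chromosome 7, Cyp2b10 differed by -0.99 and the 7 other members by between -0.33 and 0.06. Of those others, only Cyp2s1 (-0.33), Cyp2b9 (-0.31) and Cyp2a12 (0.04) were above the filter. The Cyp2j cluster on chromosome 4 held the neighbours Cyp2j6 and Cyp2j9, both lower, between members under the filter. In the Cyp2d cluster on chromosome 15, both members above the filter, Cyp2d22 (-0.65) and Cyp2d26 (-0.70), were past 1.5-fold. Low signal limits what can be seen: 26 of the 45 clustered members were below the filter.

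**Figure D4:**
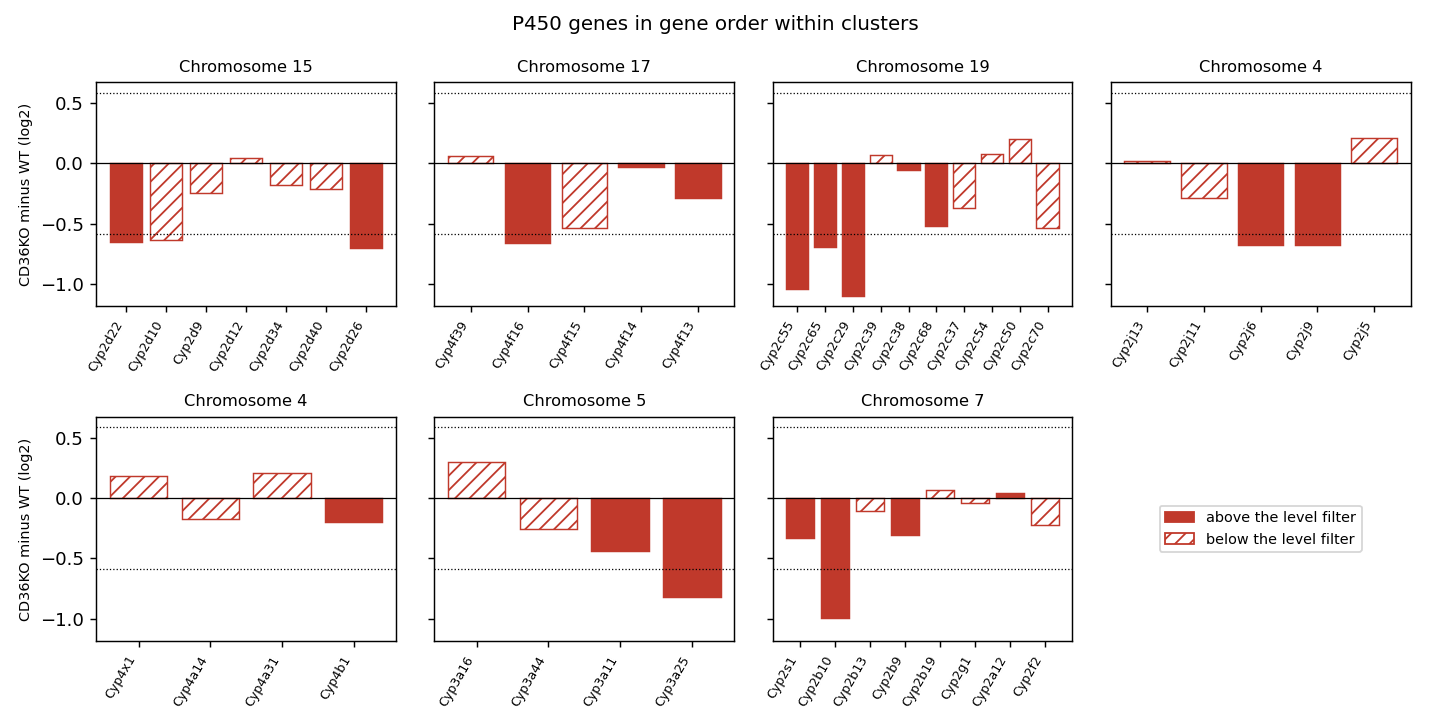
CD36KO minus WT difference (log2) of P450 genes in their order along the chromosome, for the 7 clusters with at least 1 member above the level filter. Filled bars are above the filter, hatched bars below it, and dotted lines mark 1.5-fold. Bars past the lower line stand beside bars near 0 within the same cluster, but many of the bars near 0 are hatched. In the Cyp2d and Cyp2j clusters every filled bar is past the lower line.

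The genes that serve the P450s or share their regulators were set beside them. Of 8 listed electron donors and partners of P450s, 6 were measured, and P450 reductase was not among these. All 6 read lower at the probe set used, each by less than 1.5-fold. Of all genes above the filter, 50.8% read lower by any amount. The median of the 6 measured genes was -0.34. These included Pgrmc2, a haem-binding P450 partner (-0.57), Cyb5r3, the cytochrome b5 reductase (-0.56, with another probe set at 0.36), and cytochrome b5 itself, Cyb5a (-0.37). Haem synthesis genes had a median of -0.01 over the 7 above the filter, with 0 past 1.5-fold in either direction at the probe set used. Across probe sets, Cpox ranged from -0.71 to 0.54, Fech from -0.45 to 0.59 and Ppox from -0.51 to 0.21. Cpox thus passed 1.5-fold downward, and Fech upward, at a probe set not used.

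Of 12 nuclear receptors above the filter, 2 were at least 1.5-fold lower and 1 higher at the probe set used. CAR, Nr1i3, read 7.03 in CD36KO and 7.92 in WT, 1.86-fold lower. PXR, Nr1i2, was nearly level at 6.14 in CD36KO and 6.26 in WT (-0.12). Nr0b2, a repressor induced by the bile acid receptor, was 1.74-fold lower, and that receptor, Nr1h4, was 1.73-fold higher. Each of Nr1i3, Nr0b2 and Nr1h4 has 1 probe set. Hnf4a was counted within 1.5-fold (0.26), but its 4 probe sets, all higher in CD36KO, ranged from 0.21 to 1.52. Vdr differed by -0.50, with its other probe set at 0.07.

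Of 8 other known targets of PXR and CAR, all read lower, 6 of them by at least 1.5-fold, with a median of -0.86. Slco1a4 differed by only -0.0073. Of all genes above the filter, 50.8% read lower by any amount and 3.17% by at least 1.5-fold. The part of either receptor in the P450 differences was not tested. Gsta2, a glutathione transferase, read 4.55 in CD36KO and 7.07 in WT (5.74-fold lower). Abcc2, an apical exporter of conjugates, read 6.74 in CD36KO and 8.18 in WT (2.72-fold lower). The carboxylesterase Ces2a differed by -0.99 and the glutathione transferase Gstm1 by -0.95. Of 7 other PPARA targets measured, 4 were 1.5-fold lower and 0 higher, led by Acaa1b (-1.68) and Pdk4 (-1.01), and 3 of the 6 above the filter on both arrays. In the arachidonate pathway both epoxide hydrolases were lower, Ephx1 by -1.26 and Ephx2 by -0.99, and the other 5 genes above the filter lay within 1.5-fold. Among genes of retinoic acid handling 0 of 7 passed 1.5-fold, and the median was -0.24.

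Markers of gut segments differed in the same pools. Of 16 proximal small intestine markers, all read lower in CD36KO at the probe set used. The median was -0.60, and 8 were at least 1.5-fold lower. Pdx1, the duodenal homeobox factor, differed most (-1.26), but its other probe set was level (-0.00042). Gata4 and Slc11a2 each also had a probe set that read higher in CD36KO (0.16 and 0.08). The summed linear signal of the 16 was 34587 in CD36KO and 46590 in WT. Of 12 distal markers, all read higher at the probe set used. Osr2 and Clec2h each also had a probe set that read lower in CD36KO (-0.14 and -0.06). Of the 11 above the filter, 9 passed 1.5-fold (8 of the 10 above it on both arrays). The summed signal of the 12 was 20372 in CD36KO and 7162 in WT. Of 4 colon markers measured, Car1 and Car4 were higher by at least 1.5-fold and the other 2 were below the filter in both pools. Car1 reached the filter only through its CD36KO value, at 5.73 in CD36KO and 3.95 in WT, which left 1 gene above it on both arrays. The sum of the 4 was 1495 in CD36KO and 626 in WT. The part of the segment markers in the P450 differences was not tested.

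For markers of enterocytes in general the median was -0.09 and 0 of 7 passed 1.5-fold. By any amount, 6 read lower and 1 higher, with the largest difference at Treh (-0.54). Their summed signal was 28110 in CD36KO and 31641 in WT. Hepatocyte markers were mostly near the floor, with 5 of 9 below 4.38 on both arrays, albumin (Alb) at 3.90 in CD36KO and 4.54 in WT, and a sum of 238 in CD36KO and 306 in WT. Of the 3 above the filter, Ttr, the thyroxine carrier, read 6.27 in CD36KO and 7.29 in WT (-1.02). Tat (0.49) and Apoh (0.33) were higher within 1.5-fold. The 4 Ttr probe sets ranged from -1.37 to -0.14, and the other Apoh probe set differed by -0.04. Pancreas acinar markers were higher at 8 of 8 genes, with a sum of 17543 in CD36KO and 4959 in WT. Smooth muscle markers were higher at 6 of 6 genes at the probe set used, 4 of them past 1.5-fold. Acta2 also had a probe set that read lower (-0.04), and the other Myh11 probe set differed by 0.14. The sum of the smooth muscle markers was 11027 in CD36KO and 8071 in WT. Leukocyte markers had a median of 0.28 over the 5 above the filter, with 0 past 1.5-fold, and a sum of 1626 in CD36KO and 1389 in WT. Cd68, a macrophage marker just under the filter by its mean, read 5.18 in CD36KO and 3.46 in WT (1.71), the largest difference of that list. No marker can be called absent, since the table has no detection calls, and the part of these tissues in the P450 differences was not tested.

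**Figure D5:**
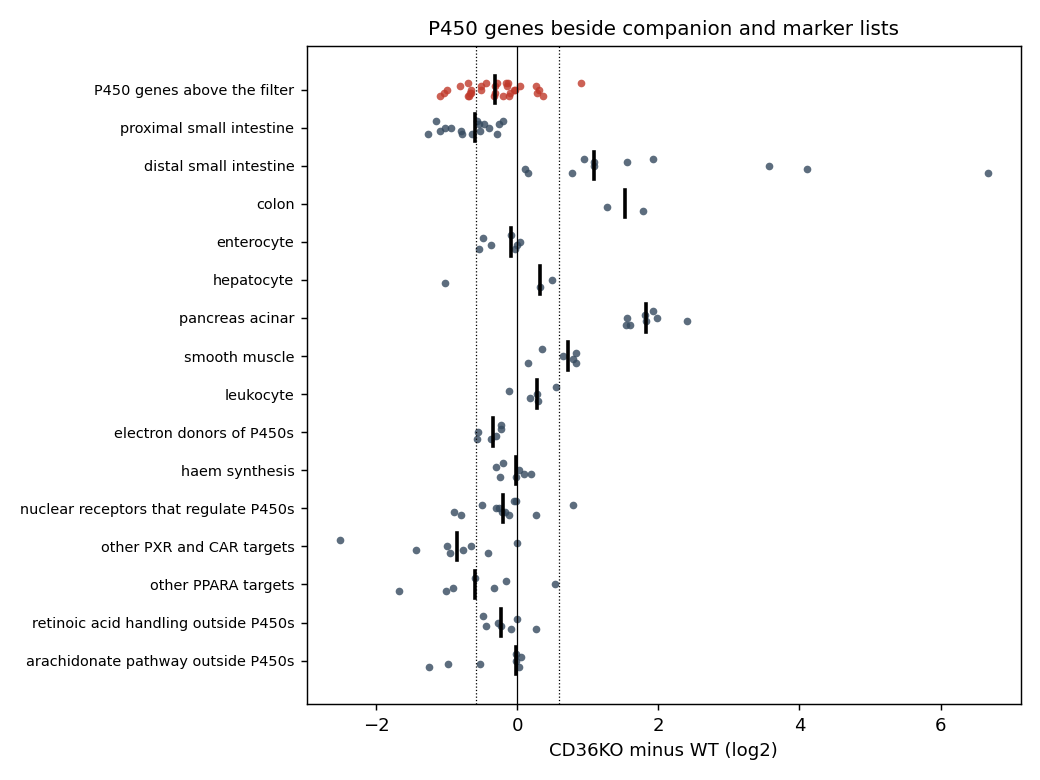
CD36KO minus WT difference (log2) of every gene above the level filter in the P450 set (top row) and in 15 companion and marker lists. Points are genes, black bars are medians, and dotted lines mark 1.5-fold. The P450 median of -0.31 and the proximal marker median of -0.60 lie left of 0, and the distal and pancreas medians lie right of it.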

How the data were processed

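RNA of the proximal intestine was measured on 1 Affymetrix array per genotype, each from a pool of 3 animals and 100 ng of total RNA, per the labels' protocols. The deposited table holds log2 values of 45101 probe sets; no source used here gives the authors' summarization or normalization. The base follows from the highest value, which as a natural logarithm would be 1.46e+06, beyond the 65535 of a 16-bit scanner. The table has no detection calls. Precision is limited by having 2 arrays.

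Of the probe sets, 34958 carried 1 gene symbol in the platform annotation, 932 carried several and were not named, and 9211 are unnamed here. RefSeq (GRCm38.p6) changed 0 member symbols and gave the order of 66 members and the start windows. The file names no genome build.

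The CD36KO minus WT difference was computed with no further normalization and no test. The filter was set on the mean of both arrays, which weighs them alike but can still admit a gene through the higher one. Named genes were every P450 above the filter past 1.5-fold and the member of each subfamily with the highest mean. Genes whose probe sets opposed in sign with at least 1 past 1.5-fold were named too. Companion list genes were mostly among the 4 with the largest difference in their list, not all of which are named. Others, such as PXR (Nr1i2), Hnf4a and Apoh, were named outside that rule. The remaining P450 members are named to account for all of them. Members and lists were chosen with earlier results of these data known. Of 142 genes in the 15 lists, 129 were analysed. The HNF1 motif was also searched and was in 0 members and 3 of the 32851 windows. The alternatives covered scaling (centring, quantile, lowess with fraction 0.3), the value per gene, the filter and the fold threshold. The software was matplotlib 3.10.9, statsmodels 0.14.6, NumPy 2.4.6, pandas 2.3.3 and Python 3.11.15. The procedure was tested on simulated data with shifts larger than any P450 member's difference, counted at 2-fold. Calls at 1.5-fold were therefore not checked in this way.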

Additional observations from a re-analysis of the deposited data

How the results depend on the processing

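The count of 10 P450 genes at least 1.5-fold lower was 10 under centring, quantile normalization and lowess, 8 with the mean over probe sets or with the probe set of smallest difference, 9 without _s_at and _x_at probe sets, 11 without a filter, 9 with a filter at the 75th percentile and 11 with a filter on the higher array. It was 2 at a threshold of 2-fold and 0 at 3-fold. The count of 1 gene higher was 0 with the 75th percentile filter, 0 at 2-fold and 0 at 3-fold, and 1 elsewhere. The median of -0.31 was -0.59 when only the 18 genes above the 75th percentile were kept and -0.18 over all 67, and lay between -0.25 and -0.32 under the others. Cyp2d22 and Cyp4f16 lay within 1.5-fold with the mean over probe sets (-0.55 and -0.45) and with the smallest difference (-0.44 and -0.23), because their other probe sets differed less. In alternatives added after the values were seen, every P450 gene above the 75th percentile read lower in CD36KO under each of the 3 scalings (18 of 18) and each of the 3 other choices of probe set (16 of 16, 17 of 17 and 17 of 17). With the filter required on both arrays, also added later, the counts were 9 lower and 1 higher and the median was -0.30. No paired analysis was possible because each genotype has 1 array, and for the same reason no replicate could be left out. A low value cannot be told from background, which limits 36 of the 67 members.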

Other observations

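P450 probe sets outside the rule gave further values. The probe set shared by Cyp4a31 and Cyp4a10, both fatty acid hydroxylases, read 4.79 in CD36KO and 5.67 in WT, a difference of -0.88, while the Cyp4a probe sets naming 1 gene were below 4.38. A probe set shared by Cyp4f37 and Cyp4f16 differed by -0.11, unlike the -0.66 of the Cyp4f16 probe set used above. Cyp51, the sterol demethylase of cholesterol synthesis, read 8.34 in CD36KO and 7.76 in WT (0.58), with other probe sets at 0.11 and -0.32. In family 1, which the rule leaves out, Cyp1a1, the aryl hydrocarbon receptor target, read 5.63 in CD36KO and 9.33 in WT (-3.70, 13.0-fold lower), a larger difference than that of any member. Cyp1a2 read 3.63 in CD36KO and 4.32 in WT, below the filter, and Cyp1b1 read 5.55 in CD36KO and 4.82 in WT (0.74), with other probe sets at 0.38 and -0.16.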
